A study of Mus musculus with 9 samples.

Results

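The genes described are those by which a heart muscle cell clears calcium from its cytosol after a beat: Atp2a2, Pln, Slc8a1, Atp2b1 and Atp2b4. Their members are the regions of NR4A2 ChIP-seq signal, listed by the authors, that touched the span of 1 of the 5 genes in the RefSeq annotation of GRCm38 extended by 10 kb on each side. There were 26 such regions among 16884 in the whole table: 9 at Atp2a2, 4 at Pln, 12 at Slc8a1, 1 at Atp2b1 and 0 at Atp2b4. The regions were chosen by position among those listed, and a listing depends on the NR4A2 signal itself. The genes were selected on their role in calcium removal with measured CPM in view, when lower signal at Atp2a2 and higher signal at Slc8a1 were already known from these same libraries. The differences and adjusted p-values below therefore describe these regions within a test run over the whole table and are not independent evidence for them.

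Chromatin was taken from heart ventricle of 3 Nr4a2-icTg mice and 3 control littermates. The Nr4a2-icTg mice carried an inducible Nr4a2 knock-in at ROSA26 together with αMHC-MerCreMer, a tamoxifen-inducible Cre recombinase driven by the Myh6 promoter of cardiomyocytes. The controls carried αMHC-MerCreMer alone, so that both groups had the Cre recombinase and both received tamoxifen. All mice were 8 to 9 weeks old at 1 intraperitoneal injection of 40 mg/kg, and the label of every sample gives day 3. NR4A2 was precipitated with antibody clone 9D12, and fruit fly chromatin with an antibody against a fly histone was added as a spike-in. The ventricle holds other cells besides the cardiomyocytes in which the transgene is switched on, and in such bulk chromatin fewer cells carrying a signal and less signal per cell cannot be told apart.

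The calcium that triggers a heartbeat has to leave the cytosol before the muscle can relax. Most of it is pumped back into the sarcoplasmic reticulum by SERCA2, the product of Atp2a2, and phospholamban, the small membrane protein encoded by Pln, holds this pump back until it is phosphorylated. The remainder leaves the cell, mainly through the sodium-calcium exchanger NCX1, encoded by Slc8a1, and to a small extent through the plasma membrane calcium pumps PMCA1 and PMCA4, encoded by Atp2b1 and Atp2b4. NR4A2, an orphan nuclear receptor, can bind as a monomer to the element AAAGGTCA, known as the NBRE, and with partners at related half-sites.

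The signal of a region is its CPM as deposited by the authors, in which the length of the region is not divided out. The number of reads in regions of a library is divided out, with a further factor of 0.991 to 1.011 per library. Reads in regions numbered 637635 to 1035856 in the Nr4a2-icTg libraries and 549700 to 1027394 in the control libraries, of which control mouse 3 was the shallowest. A log2 fold change is the difference of mean log2(CPM + 1), Nr4a2-icTg minus control, with n = 3 mice in each group throughout. Its standard error (SE) is that of limma, which draws the variance of a region towards that of regions of like signal. The SE is therefore not the spread of the mice alone. At Atp2a2 region 6 it was 0.14, and 0.25 without limma's trend and robust options. At Slc8a1 region 6 it was 0.38, and 0.30 without them. A region was called higher or lower at a Benjamini-Hochberg adjusted p under 0.05 by limma over all regions, by which 14.7% of all regions were higher and 3.17% were lower in Nr4a2-icTg hearts. The median log2 fold change of all regions was -0.06. Of the 7 cardiomyocyte markers all had a region, against 2 of 5 fibroblast, 3 of 4 endothelial, 2 of 4 smooth muscle and pericyte and 1 of 4 immune markers. Summed CPM over the cardiomyocyte markers, which include Pln itself, ranged from 36478 to 45172 in Nr4a2-icTg hearts and from 28116 to 42653 in control hearts. Endothelial markers summed to 369.5 to 504 CPM in Nr4a2-icTg hearts and 494 to 620 CPM in control hearts, and immune markers to 340.5 to 375 CPM in Nr4a2-icTg hearts and 418 to 460 CPM in control hearts. Fibroblast markers summed to 63.1 to 85.8 CPM in Nr4a2-icTg hearts and 73.8 to 109 CPM in control hearts, and smooth muscle and pericyte markers to 37.8 to 61.5 CPM in Nr4a2-icTg hearts and 21.7 to 38.0 CPM in control hearts. The immune sums, which rest on 2 regions of 1 gene, were thus apart and the other 4 overlapped. The overlap was narrow for endothelial markers (504 against 494 CPM) and slighter still for smooth muscle and pericyte markers. Of the 31 cardiomyocyte marker regions 9 were called higher (29.0%) and 2 lower (6.45%), and of the 12 endothelial ones 1 was called lower, at Pecam1, while the part of cell composition in the differences below was not tested.

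The promoters over which the described regions lie are shown because the region over the start of Slc8a1 was called higher in Nr4a2-icTg hearts, that over the start of Atp2b1 was called lower and that of Pln took in the whole gene. Each sequence runs 5′ to 3′ from 250 bases before to 50 bases after a transcription start, in RefSeq's GRCm38.p6, and the capitals mark the 50 transcribed bases. The Slc8a1 promoter lies at chr17:81738338-81738637 on the minus strand, the Atp2b1 promoter at chr10:98914392-98914691 on the plus strand, and the Pln promoter at chr10:53337436-53337735 on the plus strand.
Slc8a1: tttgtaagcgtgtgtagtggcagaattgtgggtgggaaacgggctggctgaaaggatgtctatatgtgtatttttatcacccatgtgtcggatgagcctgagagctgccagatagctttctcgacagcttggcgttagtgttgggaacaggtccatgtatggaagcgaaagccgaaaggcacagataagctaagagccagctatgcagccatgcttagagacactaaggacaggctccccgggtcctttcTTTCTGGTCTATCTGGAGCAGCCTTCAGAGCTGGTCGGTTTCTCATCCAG
Atp2b1: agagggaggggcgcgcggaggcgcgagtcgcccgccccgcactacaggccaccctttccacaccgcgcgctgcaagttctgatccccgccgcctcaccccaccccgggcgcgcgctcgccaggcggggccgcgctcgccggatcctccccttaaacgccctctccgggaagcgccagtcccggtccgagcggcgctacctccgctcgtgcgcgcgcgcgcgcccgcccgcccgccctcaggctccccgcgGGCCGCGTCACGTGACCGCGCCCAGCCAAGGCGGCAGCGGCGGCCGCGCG
Pln: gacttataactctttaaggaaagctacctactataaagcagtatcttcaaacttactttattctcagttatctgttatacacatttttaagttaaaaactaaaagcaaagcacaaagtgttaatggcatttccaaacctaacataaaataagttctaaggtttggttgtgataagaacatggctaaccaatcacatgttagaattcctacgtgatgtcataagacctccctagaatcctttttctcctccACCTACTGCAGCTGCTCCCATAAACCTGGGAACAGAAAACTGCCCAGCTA
None of the 3 held the NBRE letters AAAGGTCA or the shorter half-site AGGTCA, which lies within the NBRE, on either strand. The same was found for a further start of Atp2b1 and for the start given for Atp2b4. Among 32851 promoters of 300 bases, 1.51% held AAAGGTCA and 16.3% held AGGTCA. The promoters differed in composition, with a G and C content of 50.7% at Slc8a1, 79.3% at Atp2b1 and 36.0% at Pln. The Slc8a1 region covered 232 of the 300 bases, and those of Atp2b1 and Pln covered all of them.

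At Atp2a2, NR4A2 ChIP-seq signal was listed over nearly the whole gene and was lower in Nr4a2-icTg hearts in each region over it. The pooled input was not analysed here. How much of this signal, or of that over Pln, is background and not binding of NR4A2 was not tested. The gene spans 48.7 kb of chromosome 5 (122453513 to 122502225), and 6 regions separated by gaps of 90 to 307 bp covered 97.6% of it. These 6 regions formed a stretch of 54.02 kb, from 122449465 to 122503487, that ran past both gene ends, and all 6 were called lower, against 3.17% of all regions. Their log2 fold changes lay between -0.74 and -0.54. None of the 9 Atp2a2 regions was called higher, and all 9 had a negative log2 fold change. Only 1 of the 9 lay below the median signal of the table. Of all regions of at least that median, 5.25% were called lower and 6.61% higher. In that set 30.6% had a positive log2 fold change, against 45.3% of all regions, and the median was -0.16.

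**Figure D1:**
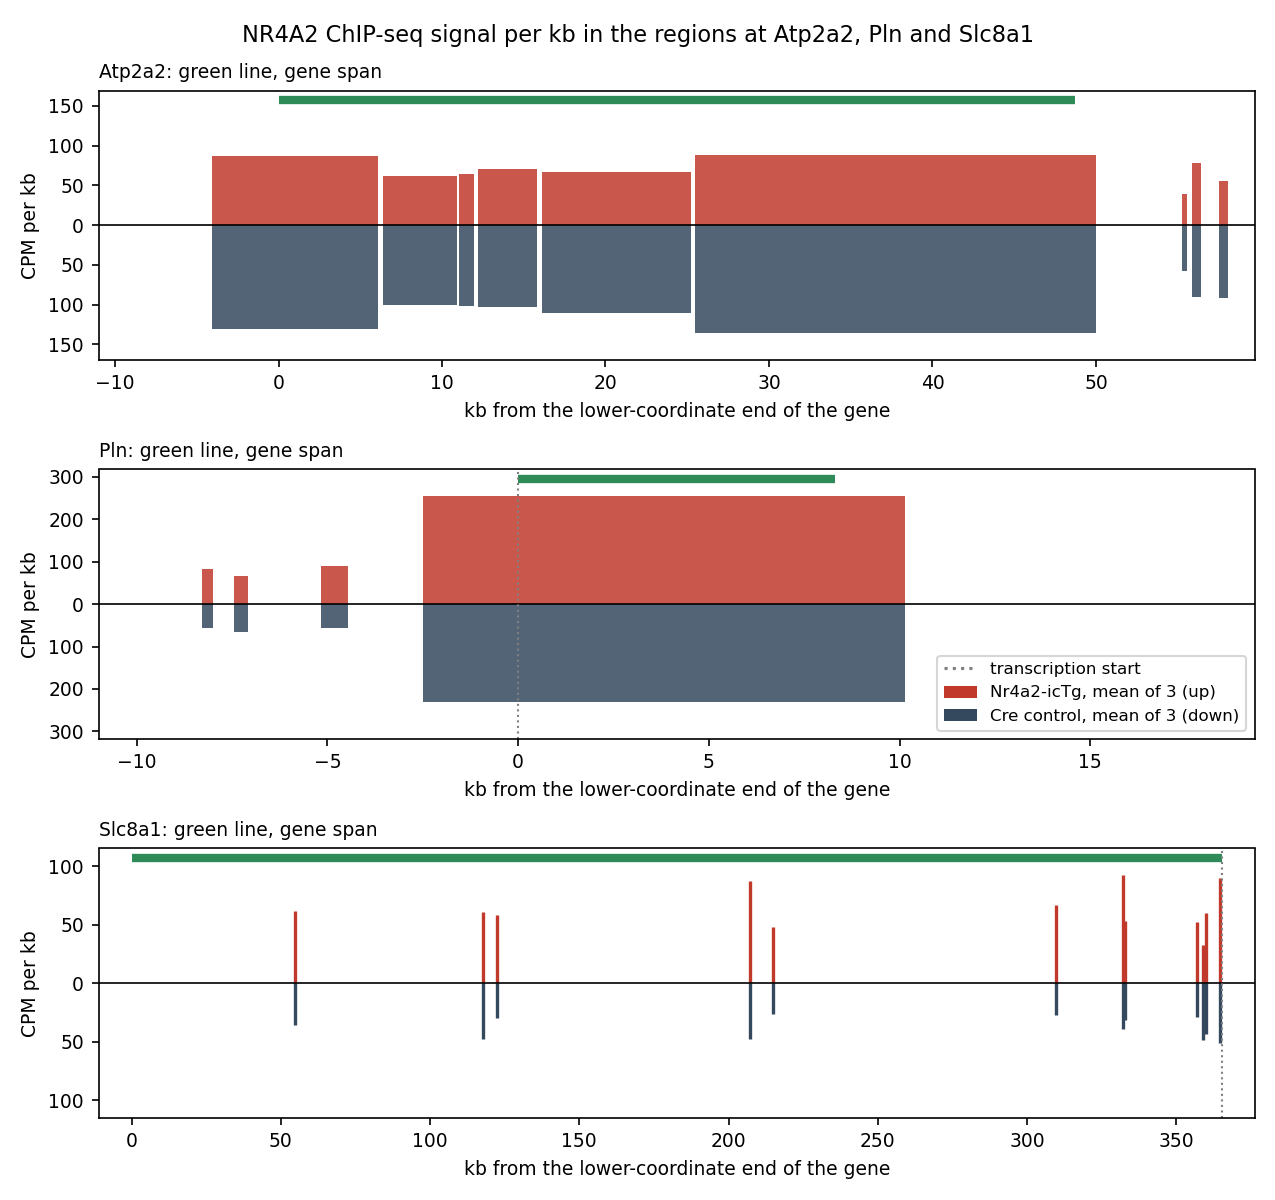
NR4A2 ChIP-seq signal per kb of region (CPM per kb, mean of 3 mice per group) against distance from the lower-coordinate end of Atp2a2, Pln and Slc8a1, with Nr4a2-icTg drawn upwards and Cre control downwards; at Slc8a1 each region is a line at its centre because the regions are too short to show to scale. Atp2a2 and Pln are covered almost end to end, with control signal of 101 to 136 CPM per kb in the 6 Atp2a2 regions, while the 12 Slc8a1 regions are scattered over the gene.

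The longest of the 6, region 6 (chromosome 5, 122478997 to 122503487), covers the higher-coordinate end of the gene and was the 4th longest region of the table. It held 2158, 2565 and 1809 CPM in Nr4a2-icTg mice 1, 2 and 3, against 3754, 3452 and 2753 CPM in control mice 1, 2 and 3. Every Nr4a2-icTg heart was below every control heart, with a log2 fold change of -0.61 ± 0.14 (SE, limma, adjusted p = 0.000756). This call held with any 1 mouse left out, with an adjusted p of at most 0.0475.

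Region 1 (122449465 to 122459610), at the lower-coordinate end of the gene, held 757, 1177 and 714 CPM in the Nr4a2-icTg mice and 1569, 1375 and 1015 CPM in the control mice. Its log2 fold change was -0.59 ± 0.16 (SE, limma, adjusted p = 0.00637). The groups overlapped here, since Nr4a2-icTg mouse 2 was above control mouse 3. Of the 10146 bases of this region, 6098 lay in Atp2a2, and the region is also assigned to Anapc7, the neighbouring gene for a subunit of the ubiquitin ligase of mitosis.

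Region 5 (122469614 to 122478740) held 582, 839 and 425 CPM in the Nr4a2-icTg mice and 1212, 1058 and 758 CPM in the control mice (log2 fold change -0.74 ± 0.21 SE, limma, adjusted p = 0.0194). Region 2 (122459918 to 122464450) held 256, 364 and 221 CPM in the Nr4a2-icTg mice and 586, 447 and 337 CPM in the control mice (-0.70 ± 0.17 SE, adjusted p = 0.00261). In both, as in region 1, Nr4a2-icTg mouse 2 exceeded control mouse 3 and no other pair of mice crossed. Region 4 (122465690 to 122469321) held 254, 331 and 190.5 CPM in the Nr4a2-icTg mice and 481, 374 and 273 CPM in the control mice (-0.54 ± 0.18 SE, adjusted p = 0.0320). Region 3 (122464541 to 122465460), the shortest of the 6, held 60.2, 78.8 and 37.8 CPM in the Nr4a2-icTg mice and 118, 87.6 and 74.2 CPM in the control mice (-0.69 ± 0.25 SE, adjusted p = 0.0376). The same single crossing was present in these regions, so that the groups overlapped in 5 of the 6. Of all regions, 31.6% had groups that did not overlap, 11.7% with lower and 19.9% with higher signal in Nr4a2-icTg hearts.

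The 6 regions ranked the mice in the same way. Nr4a2-icTg mouse 2 was the highest and Nr4a2-icTg mouse 3 the lowest of its group in 6 of 6, and control mouse 1 was the highest and control mouse 3 the lowest of its group in 6 of 6. The 6 are therefore not 6 separate observations of a difference between mice. Without Nr4a2-icTg mouse 3 the number of Atp2a2 regions called lower was 1, without Nr4a2-icTg mouse 1 it was 2 and without control mouse 1 it was 3. DESeq2 on reads recovered from the CPM called 2 of the 6. Limma without its trend and robust options called 0, as did edgeR on reads not scaled for depth.

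Beyond the higher-coordinate end of Atp2a2, 3 short regions at distances of 6579 to 8807 bp were weak, with 6.31 to 54.2 CPM in Nr4a2-icTg hearts and 9.73 to 67.0 CPM in control hearts. None was called (limma, adjusted p between 0.0924 and 0.727), and the groups overlapped in all 3. The nearest region past the limit of 10 kb lay 18.2 kb from the gene and held 36.0 ± 12.5 CPM in Nr4a2-icTg hearts and 64.9 ± 13.3 CPM in control hearts (SD), with a log2 fold change of -0.87. The last one inside the limit held 31.5 ± 15.5 CPM in Nr4a2-icTg hearts and 52.1 ± 15.0 CPM in control hearts.

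Phospholamban, the inhibitor of the pump, had a comparable blanket of signal and no called difference. Pln spans 8314 bp of chromosome 10 (53337686 to 53345999), and 1 region of 12631 bp (53335201 to 53347831) covered it whole. That region, the 5th strongest of the table, held 2806, 3809.8 and 3013 CPM in the Nr4a2-icTg mice and 3720.2, 2900.4 and 2127 CPM in the control mice. The groups overlapped widely, and the log2 fold change was 0.16 ± 0.15 (SE, limma, adjusted p = 0.525). Leaving out control mouse 3 took it to -0.05, so no direction is given. Per kb, Pln carried 254 CPM in Nr4a2-icTg hearts and 231 CPM in control hearts, more than any Atp2a2 region, for which the range was 39.2 to 88.9 CPM per kb in Nr4a2-icTg hearts and 57.2 to 136 CPM per kb in control hearts.

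The other 3 Pln regions lay 4458 to 7991 bp before the start and were weak. The strongest of them, region 3 (53332518 to 53333228), held 74.5, 50.4 and 69.4 CPM in the Nr4a2-icTg mice and 44.1, 24.3 and 52.5 CPM in the control mice (log2 fold change 0.72 ± 0.29 SE, limma, adjusted p = 0.0700). It did not pass the threshold, although it did without control mouse 3 or without Nr4a2-icTg mouse 2, with adjusted p of 0.0175 and 0.0367. Regions 1 and 2 had log2 fold changes of 0.56 and -0.08 with adjusted p of 0.425 and 0.920. All 4 Pln regions are also assigned to Cep85l, whose extended span takes in Pln, so a signal there cannot be given to 1 gene by position.

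The pump and its inhibitor were set against each other within each library, where depth and scaling cancel. Reads over the 6 Atp2a2 regions divided by reads over the Pln gene region came to 1.45, 1.41 and 1.13 in Nr4a2-icTg mice 1, 2 and 3, against 2.07, 2.34 and 2.45 in control mice 1, 2 and 3. The groups did not overlap, and the mean was 1.33 ± 0.17 in Nr4a2-icTg hearts and 2.29 ± 0.19 in control hearts (SD). This ratio was chosen after the values had been seen and was not tested. It shows that signal at the 2 genes was in a different proportion in the 2 groups, and not which of them moved.

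**Figure D2:**
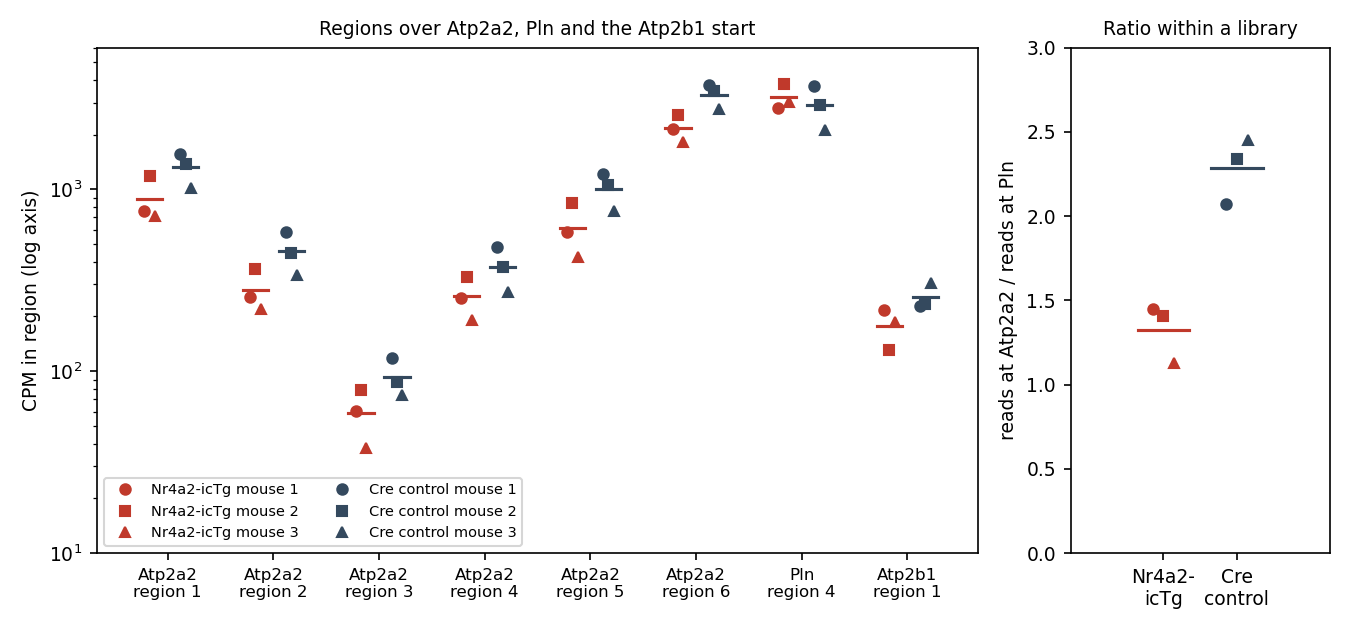
Left, CPM per mouse (log axis; symbols are mice, short lines are group means) in the 6 regions over Atp2a2, the region over Pln and the region at the Atp2b1 start, with Nr4a2-icTg left of Cre control; right, the ratio of reads over Atp2a2 to reads over Pln within each library. The 3 Nr4a2-icTg ratios lie between 1.13 and 1.45, below the 3 control ratios between 2.07 and 2.45.

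The share of reads in broad regions elsewhere overlapped between the groups. The other 249 regions of at least 2 kb took 14.1, 15.3 and 12.9% of the reads in regions in the Nr4a2-icTg mice and 15.1, 14.2 and 12.2% in the control mice, and these ranges overlap. In both groups the mouse with the lowest share here, Nr4a2-icTg mouse 3 and control mouse 3, was also the lowest of its group over Atp2a2, and the part of this in the Atp2a2 values was not tested. Relative to those other broad regions, the 6 Atp2a2 regions held 2.91, 3.49 and 2.62% as many reads in the Nr4a2-icTg mice and 5.08, 4.80 and 4.29% as many in the control mice, with no overlap. Pln held 2.01, 2.48 and 2.33% in the Nr4a2-icTg mice and 2.45, 2.05 and 1.75% in the control mice, which overlap. These shares were also chosen after the values had been seen and were not tested. The 6 Atp2a2 regions in them are those called lower, and their CPM overlapped between the groups in 5. How many other broad regions would separate in this way was not counted. Among all 255 regions of at least 2 kb, 12.5% were called lower and 15.7% higher, against 3.17% and 14.7% of all regions, with a median log2 fold change of -0.02, so that the sum holds differences in both directions.

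The exchanger gene showed the opposite sign with a different layout. Slc8a1 spans 365 kb of chromosome 17 (81373105 to 81738387), and 12 short regions of 209 to 1763 bp covered 1.53% of it. Of these, 3 were called higher (25.0%) and none lower, against 14.7% and 3.17% of all regions, and 11 of 12 had a positive log2 fold change, with a median of 0.79. Over all regions 45.3% had a positive log2 fold change. As 11 of the 12 lay below the median signal of the table (37.4 CPM), the values over all regions below that median are also given: 22.7% were called higher and 1.1% lower, 60.1% had a positive log2 fold change and the median was 0.23. Of the 11 Slc8a1 regions below it, 2 were called higher and 10 had a positive log2 fold change, with a median of 0.79. The remaining called region, region 12, lay above it.

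The strongest Slc8a1 region, region 12 (chromosome 17, 81736807 to 81738569), lies over the transcription start shown above. It held 149, 162 and 161 CPM in the Nr4a2-icTg mice, against 107, 96.4 and 68.8 CPM in the control mice. The groups did not overlap and the Nr4a2-icTg mice lay close together, with a log2 fold change of 0.82 ± 0.20 (SE, limma, adjusted p = 0.00116). With any 1 mouse left out the adjusted p stayed at or below 0.0190.

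Region 6 (81682483 to 81683105), 55.3 kb into the gene from the start, held 41.1, 45.7 and 37.8 CPM in the Nr4a2-icTg mice and 23.6, 16.5 and 10.9 CPM in the control mice. Its log2 fold change was 1.30 ± 0.38 (SE, limma, adjusted p = 0.00946), and it stayed called with any 1 mouse left out (adjusted p up to 0.0497). Region 7 (81704992 to 81705383), 33.0 kb from the start, held 37.2, 45.7 and 25.2 CPM in the Nr4a2-icTg mice and 9.22, 22.4 and 14.5 CPM in the control mice (1.22 ± 0.41 SE, adjusted p = 0.0270). In both regions every Nr4a2-icTg heart was above every control heart. The call at region 7 ended without control mouse 1, Nr4a2-icTg mouse 1 or Nr4a2-icTg mouse 2, with adjusted p of 0.149, 0.0975 and 0.158. Without the trend and robust options limma called 1 of the 3 Slc8a1 regions, and edgeR on reads not scaled for depth called 0.

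The 9 uncalled Slc8a1 regions held 4.73 to 46.7 CPM in Nr4a2-icTg hearts and 1.02 to 27.7 CPM in control hearts, which is 1 to 40 reads, and their adjusted p lay between 0.228 and 0.779. None of them passed the threshold. Among them only region 4 (81580180 to 81580388) had groups that did not overlap, with 13.4, 17.3 and 24.0 CPM in the Nr4a2-icTg mice and 8.20, 12.7 and 9.05 CPM in the control mice (log2 fold change 0.79 ± 0.53 SE, adjusted p = 0.339). Region 10 (81731776 to 81732138) was the exception in sign, with 7.64, 18.9 and 8.83 CPM in the Nr4a2-icTg mice and 27.7, 14.6 and 10.9 CPM in the control mice (-0.55 ± 0.53 SE, adjusted p = 0.544).

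Added over the 11 regions away from the start, Slc8a1 held 256, 241 and 222 CPM in the Nr4a2-icTg mice, against 143, 132 and 147 CPM in the control mice. The same direction was therefore present in the sum inside the gene and at the start, with no overlap of the groups in either. Over all 12 regions the sum was 405, 404 and 383 CPM in the Nr4a2-icTg mice and 250, 229 and 215 CPM in the control mice, a ratio of means of 1.72.

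Summed in the same way over its 9 regions, Atp2a2 held 4141, 5459 and 3484 CPM in the Nr4a2-icTg mice and 7848, 6906 and 5331 CPM in the control mice, a ratio of means of 0.651. The Atp2a2 sums overlapped, because Nr4a2-icTg mouse 2 was above control mouse 3. The 4 Pln regions held 2929, 3900 and 3139 CPM in the Nr4a2-icTg mice and 3809, 2969 and 2212 CPM in the control mice, a ratio of means of 1.11, with wide overlap. Per kb of listed region, Pln carried 237 CPM, Atp2b1 127 CPM, Atp2a2 80.4 CPM and Slc8a1 69.0 CPM in Nr4a2-icTg hearts, against 214, 182, 123 and 40.2 CPM per kb in control hearts, so that the order of the 4 genes was the same in both groups. The mice of neighbouring genes in that order overlapped for Atp2b1 and Atp2a2 and for Atp2a2 and Slc8a1 in Nr4a2-icTg hearts, and for Pln and Atp2b1 in control hearts.

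**Figure D3:**
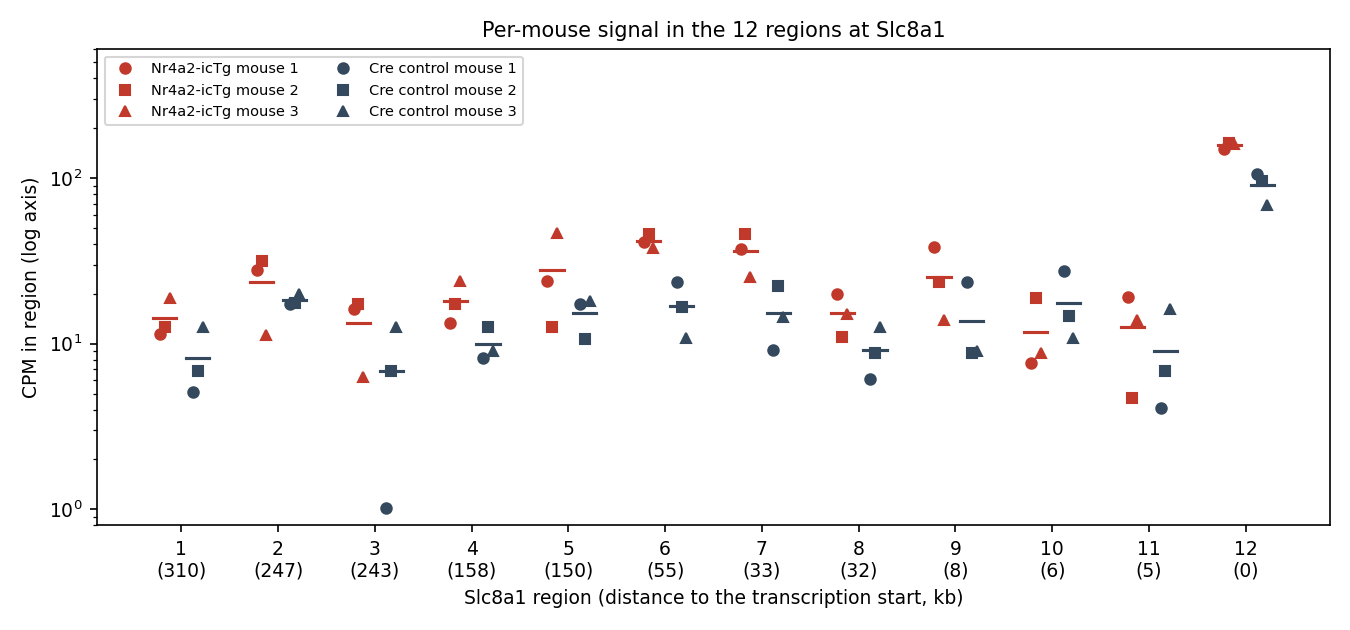
CPM per mouse (log axis) in the 12 Slc8a1 regions, ordered along the chromosome, with the distance to the transcription start in kb in brackets; symbols are mice, short lines group means, Nr4a2-icTg left of Cre control. The groups separate in regions 4, 6, 7 and 12, and region 12 over the start is the strongest at 149 to 162 CPM in Nr4a2-icTg hearts and 68.8 to 107 CPM in control hearts.

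The nearest listed region outside the 10 kb limit at Slc8a1 lay 40.6 kb from the gene and held 50.7 ± 22.6 CPM in Nr4a2-icTg hearts and 20.0 ± 4.05 CPM in control hearts (SD), with a log2 fold change of 1.22. All 12 regions that the rule took touch the gene itself. The nearest region outside the limit at Pln lay 12.3 kb away with 77.7 ± 8.11 CPM in Nr4a2-icTg hearts and 79.4 ± 23.5 CPM in control hearts, and at Atp2b1 207 kb away with 20.9 ± 10.9 CPM in Nr4a2-icTg hearts and 19.7 ± 6.46 CPM in control hearts.

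The genes of the plasma membrane pumps had 1 listed region between them. At Atp2b1, the gene for the widely expressed pump PMCA1 (chromosome 10, 98914630 to 99026143), the sole region (98913844 to 98915248) covered both starts that RefSeq gives. It held 217, 131 and 187 CPM in the Nr4a2-icTg mice and 227, 234 and 306 CPM in the control mice. The groups did not overlap, by a margin of 217 against 227 CPM, and the log2 fold change was -0.54 ± 0.17 (SE, limma, adjusted p = 0.0200). The call ended without control mouse 3, Nr4a2-icTg mouse 2 or Nr4a2-icTg mouse 3, with adjusted p of 0.120, 0.251 and 0.0577. No region was listed within 10 kb of Atp2b4 (chromosome 1, 133702674 to 133801059), the gene of PMCA4. The nearest one lay 19.8 kb away and held 24.3 ± 8.71 CPM in Nr4a2-icTg hearts and 6.14 ± 3.96 CPM in control hearts (SD), with a log2 fold change of 1.89.

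Over the 26 regions together, 7 were called lower and 3 higher, the 7 being those of Atp2a2 and Atp2b1 and the 3 those of Slc8a1. The groups did not overlap in 7 of the 26, against 31.6% of all regions. In the authors' deposited table, where no region with an absolute log2 fold change under 0.69 is marked as changed, 3 of the Atp2a2 regions (2, 3 and 5) are marked down, the same 3 Slc8a1 regions (6, 7 and 12) are marked up and the rest unchanged, while 1.95% of all regions in it are marked down and 14.9% up. In the authors' deposited table the FDR was under 0.05 for 7 of the 26 regions with lower (26.9%) and 3 with higher signal (11.5%), against 3.00% and 15.2% of all its regions.

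**Figure D4:**
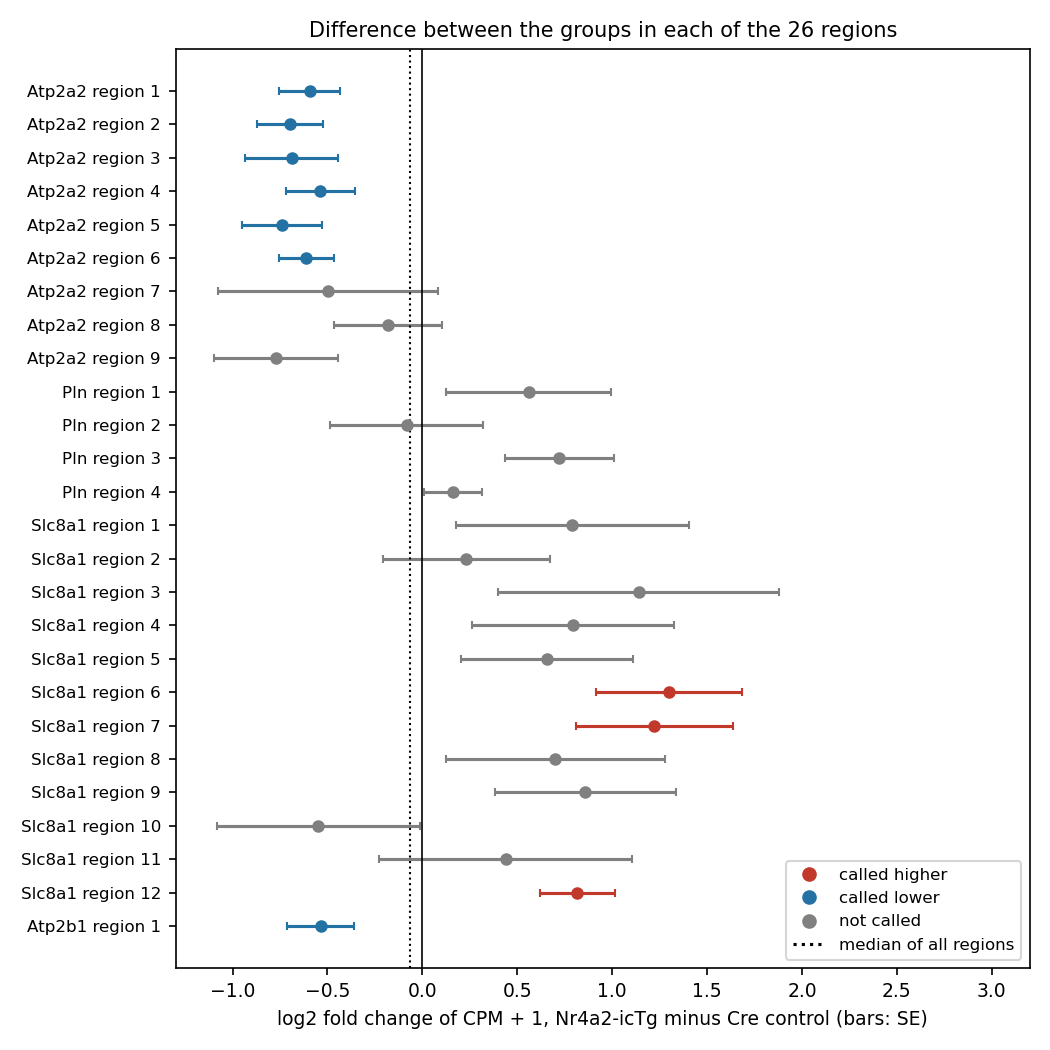
Log2 fold change of CPM + 1 (Nr4a2-icTg minus Cre control) with its SE in each of the 26 regions, coloured by call at an adjusted p under 0.05; the dotted line is the median of all regions, -0.06. The 6 regions over Atp2a2 lie between -0.74 and -0.54, Pln region 4 lies at 0.16 and the 3 called Slc8a1 regions lie between 0.82 and 1.30.

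Other genes of calcium removal were taken from lists of 46 genes, of which 44 matched a RefSeq symbol and 35 had a region. Higher signal was called in some region of 8 of these genes and lower signal in some region of 2. Of all 11151 genes with a region, 14.2% had a higher one and 6.24% a lower one, without regard to how many regions a gene has. Counted by region, 11 of 92 were higher (12%) and 2 lower (2.17%), both below the shares of 14.7% and 3.17% over all regions. None of the paralogous pumps and exchangers was among the 8 or the 2: only 4 of the 7 listed had a region, and none of the 4 regions was called (limma, adjusted p under 0.05). Over the 92 regions of these genes the median log2 fold change was -0.04, beside 0.20 for the 26. The latter joins genes of opposite sign, with medians of -0.61 over 9 regions at Atp2a2 and 0.79 over 12 at Slc8a1, and describes neither.

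Among 26 listed regulators of SERCA2 and phospholamban, 20 had a region, 6 had a higher one and 1 a lower one. Of their 54 regions 9 were higher (16.7%) and 1 lower (1.85%), close to the 14.7% and 3.17% of all regions, with a median log2 fold change of -0.03. At Pde4d, the gene of a phosphodiesterase that breaks down the messenger cAMP and so limits phosphorylation of phospholamban, a region within the gene (chromosome 13, 109632425 to 109633335) held 65.9, 85.1 and 112 CPM in the Nr4a2-icTg mice and 8.20, 22.4 and 19.9 CPM in the control mice (log2 fold change 2.39 ± 0.33 SE, limma, adjusted p = 4.21e-08). Pde4d had 3 higher regions of 5. At Ppp1r3a, a targeting subunit of protein phosphatase 1 in striated muscle, a region (chromosome 6, 14752783 to 14753864) held 59.2, 74.1 and 73.2 CPM in the Nr4a2-icTg mice and 25.6, 38.0 and 30.8 CPM in the control mice (1.12 ± 0.29 SE, adjusted p = 0.00260). At both genes every Nr4a2-icTg heart was above every control heart, and both calls held with any 1 mouse left out.

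Camk2d, whose kinase phosphorylates phospholamban, had the lower region of this list (chromosome 3, 126596080 to 126597669), with 153, 177 and 195.5 CPM in the Nr4a2-icTg mice and 253, 235 and 250 CPM in the control mice (log2 fold change -0.49 ± 0.17 SE, limma, adjusted p = 0.0274). The adjusted p reached 0.157 when single mice were dropped. The other genes with a higher region were Akap7 and Akap6, which encode anchors of protein kinase A, the phosphodiesterase gene Pde3a, and Strit1. Strit1 encodes DWORF, a small peptide that relieves SERCA2 of its inhibition by phospholamban, and is described because of that role, after its values had been seen. Its only region (chromosome 3, 63483794 to 63484098) held 18.1, 28.4 and 29.0 CPM in the Nr4a2-icTg mice and 7.17, 4.87 and 9.05 CPM in the control mice, without overlap (1.71 ± 0.53 SE, adjusted p = 0.0146, up to 0.0851 with 1 mouse left out).

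Among 8 listed genes of mitochondrial calcium uptake, 6 had a region. Of their 10 regions 1 was higher, at Vdac1, a channel of the outer mitochondrial membrane, and 1 was lower, at Mcu, against 14.7% and 3.17% of all regions. At Mcu, the pore of the mitochondrial calcium uniporter, the only region (chromosome 10, 59616332 to 59616835) held 51.6, 42.6 and 35.3 CPM in the Nr4a2-icTg mice and 73.8, 78.8 and 83.3 CPM in the control mice (log2 fold change -0.87 ± 0.26 SE, limma, adjusted p = 0.0108, up to 0.0737 with 1 mouse left out). The groups did not overlap.

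The genes by which calcium enters the cytosol served for comparison, with Rrad, the gene of a regulator of calcium channels that is not itself a channel. Among 29 regions at the listed calcium channel genes and Rrad, 7 were higher (24.1%) and 3 lower (10.3%), against 14.7% and 3.17% of all regions. At Rrad lower regions had log2 fold changes of -0.91 and -1.17 and a higher one 1.40, all also assigned to Ciao2b. The remaining lower region was at Cacna1c. Their median log2 fold change was 0.49. Among 53 regions at the listed genes of calcium release from the sarcoplasmic reticulum, 7 were higher (13.2%) and 3 lower (5.66%), with a median of 0.37. Below the median signal of the table lay 21 of the 29 and 32 of the 53. Of all regions below it, 22.7% were higher and 1.1% lower, with a median log2 fold change of 0.23. The difference of these counts from those at the calcium removal genes was not tested.

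Genes whose summed signal followed that of Atp2a2 or Slc8a1 over the 6 mice were ranked among 2409 genes with at least 3 regions. Nearest to Atp2a2 by Pearson's r of log2(summed CPM + 1) were Slc25a4 (0.990) and Cfap97 (0.986), which share 3 regions. Nearest to Slc8a1 were Tenm4 (0.997), Scp2 (0.995) and Pde1c (0.993). With 6 mice in 2 groups such values can rest on the difference between the groups and on an order of mice shared within them. The 2 were not separated, and the values are given as a description. Summed signal in Nr4a2-icTg hearts against control hearts averaged 1343 against 1813 CPM at Slc25a4 and 79.0 against 14.6 CPM at Tenm4.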

How the data were processed

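The authors deposited 1 table of regions with 1 column of CPM for each of the 6 ChIP libraries. The submitters' processing notes name BWA and GRCm38 (mm10). The software for peak calling, counting and filtering was not given in the sources used here. Low CPM values gave the worth of 1 read in each library, and dividing by it made 100% of values whole to within 0.001 of a read, so whole reads were recovered from the deposited CPM. One read was worth 0.955 to 1.81 CPM, and 3 reads 2.86 to 5.43 CPM. Apart from the further factor of 0.991 to 1.011, the deposited CPM are scaled to the reads in the regions themselves, so an overall gain or loss of signal would not show. A log2 fold change, p-value and FDR of the authors' own comparison accompany each region in the deposited table. The antibody test libraries and the pooled input (3 of 9 samples) have no column and were not analysed here, and no value column was left unmatched.

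The test was limma (version 3.58.1, R 4.3.3) fitted to log2(CPM + 1) by genotype alone, using its trend and robust options, over all 16884 regions without a filter. Alternatives were edgeR (version 4.0.16) and DESeq2 (version 1.42.0) on recovered reads (2530 and 543 regions called higher and lower by edgeR), other pseudocounts, a filter on signal, no depth scaling, each mouse left out, a replicate block and gene spans without extension. Members and lists were chosen with earlier results of these data known. Per-mouse CPM is given for the called regions, for the strongest region of each gene and for the region nearest a start; of the listed regulators, called regions of at least median signal are given, largest log2 fold change first. Gene spans are those of RefSeq GRCm38.p6; starts and strands come from its promoter table, which matched 4 of the 5 genes, and Atp2a2 was not among them. Some genes that these rules name are not reported here. The labels number the mice within each group. The p-values rest on the spread between these 6 samples after limma has moderated it over all regions.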

Additional observations from a re-analysis of the deposited data

How the results depend on the processing

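Over the whole table, 2475 regions were higher and 536 lower. Without depth scaling the counts were 1453 and 19, with a filter at median signal 481 and 235, by DESeq2 251 lower, and without trend and robust moderation 132 lower. Leaving out 1 mouse gave 1577 to 2332 higher and 270 to 454 lower. Of the 26 regions, 3 were higher and 7 lower. No depth scaling left 0 and 0, the filter 1 and 4, no trend and robust moderation 1 and 0, and DESeq2 2 lower. Leaving out 1 mouse gave 2 to 4 higher and 1 to 7 lower. The 6 lower Atp2a2 regions became 2 by DESeq2, 0 without depth scaling, 0 without trend and robust moderation and 1 to 7 with a mouse left out. The 3 higher Slc8a1 regions became 0 without depth scaling, 1 under the filter, which leaves 1 Slc8a1 region to test, 1 without trend and robust moderation, and 2 to 3 with a mouse left out. The lower Atp2b1 region became 0 by DESeq2, without depth scaling, under the filter and without trend and robust moderation, and 0 to 1 with a mouse left out. Pln had 0 higher regions, and 0 to 1 with a mouse left out. Except where a smaller set was tested, the cause was not tested. The log2 fold change of the Pln gene region, 0.16, reversed to -0.0076 without depth scaling, and with a mouse left out it ranged from -0.046, without control mouse 3, to 0.36. Of the log2 fold changes of named regions under an alternative, 102 kept direction and call, 48 kept direction but lost the call and 2 reversed. Gene spans without extension left every count at these genes as it was, and both other pseudocounts left them within 1.5 times.

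The mouse numbers gave correlations of deviations of -0.07, 0.06 and 0.03 for the same-numbered pairs, so no pairing by number was seen over the table as a whole. Such correlations over all regions cannot show whether the numbers pair the mice at single regions, which was not tested. With the number as a replicate block, 2540 regions were higher and 580 lower, and the counts at the 26 regions stayed at 3 and 7. The block lowered the adjusted p (limma) of the called Atp2a2 regions, from 0.0194 to 1.90e-06 at region 5 and from 0.0376 to 0.0281 at region 3. The uncalled Slc8a1 regions held 1 to 40 reads per mouse, and 1 read was worth up to 1.81 CPM; the part of depth in their calls was not tested.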
